A study of Mus musculus with 60 samples.

Results

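The 10 genes described here are identity genes of cortical interneurons, the inhibitory nerve cells of the cortex: Gad1, Gad2, Slc32a1, Pvalb, Sst, Vip, Npy, Calb2, Lhx6 and Adarb2. They were chosen by symbol, through the gene identifiers of GENCODE release M21, from the 18088 genes measured by RNA-seq in mouse prefrontal cortex. All 10 passed the filter on low values and were tested. The mice were C57BL/6J, examined on postnatal day 25 after 3 weeks of drug given through the mother's milk from postnatal day 3 to 24. Het mice were heterozygous (Grin2b+/C456Y) for a missense allele of Grin2b, which encodes a subunit of the NMDA-type glutamate receptor, and the others were wild type (WT). The groups were Het with fluoxetine, WT with fluoxetine, Het with lithium, WT with lithium, Het with vehicle and WT with vehicle, each with 5 female and 5 male libraries, 60 in all. Fluoxetine blocks the reuptake of serotonin, and lithium is used as a mood stabiliser. A missense allele is still transcribed, so the level of Grin2b RNA does not check the genotype. Grin2b differed by 0.09 on the log2 scale between Het and WT in vehicle (limma, adjusted p = 0.709). It was higher in Het fluoxetine than in Het vehicle (0.32, adjusted p = 0.000105) and WT fluoxetine (0.24, adjusted p = 0.00198). In WT lithium it was higher than in WT vehicle (0.19, adjusted p = 0.0329). It differed by 0.17 with fluoxetine in WT (adjusted p = 0.0976), 0.07 with lithium in Het (0.709) and -0.03 between genotypes under lithium (0.887). The replicates are numbered, but nothing says that they came from different animals or litters, so p-values measure only the spread between these samples, which may be technical.

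Cortical interneurons release GABA, which the glutamate decarboxylases Gad1 and Gad2 make and the transporter Slc32a1 loads into synaptic vesicles. They fall into classes named for their markers. Lhx6 is a transcription factor of the classes born in the medial ganglionic eminence, which make parvalbumin (Pvalb, a calcium buffer of fast-spiking cells) or the neuropeptide somatostatin (Sst), and many Sst cells also make neuropeptide Y (Npy). Adarb2, an RNA-binding protein, marks the classes born in the caudal ganglionic eminence, which include cells with vasoactive intestinal peptide (Vip) and the calcium buffer calretinin (Calb2). In bulk tissue, fewer cells of a class and less RNA per cell cannot be told apart.

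In GENCODE M21 on GRCm38 the 3 GABA genes lie on chromosome 2, with Gad1 at chr2:70553072-70602014, Gad2 at chr2:22622205-22693874 and Slc32a1 at chr2:158610767-158615748, and Lhx6 lies there too at chr2:36081953-36105408. The neuropeptide genes are Sst at chr16:23889573-23890958, Npy at chr6:49822710-49829507 and Vip at chr10:5639218-5647617. The remaining members are Pvalb at chr15:78191114-78206400, Calb2 at chr8:110137502-110168210 and Adarb2 at chr13:8202866-8768747. The sequences before the starts of the neuropeptide genes are shown because Sst and Npy were called together in some comparisons below while Vip was called in none. They are the 250 bases before the RefSeq start on the gene's own strand, from build GRCm38.p6, at chr16:23890845-23891094 (minus strand) for Sst, chr6:49822460-49822709 (plus strand) for Npy and chr10:5638968-5639217 (plus strand) for Vip. Capitals mark TGACGTCA, the palindromic cyclic AMP response element for which the Sst promoter is known, or TGACGTCT, which differs from it in the last letter.
Sst: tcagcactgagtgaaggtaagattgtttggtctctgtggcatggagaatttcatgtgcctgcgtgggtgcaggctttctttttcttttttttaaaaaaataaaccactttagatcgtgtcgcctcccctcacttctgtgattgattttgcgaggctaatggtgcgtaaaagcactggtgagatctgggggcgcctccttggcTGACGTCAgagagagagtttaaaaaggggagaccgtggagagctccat
Npy: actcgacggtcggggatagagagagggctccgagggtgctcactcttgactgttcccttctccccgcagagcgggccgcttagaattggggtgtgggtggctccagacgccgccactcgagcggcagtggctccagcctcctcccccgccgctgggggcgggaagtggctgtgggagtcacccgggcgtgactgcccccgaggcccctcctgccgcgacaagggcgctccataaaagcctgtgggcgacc
Vip: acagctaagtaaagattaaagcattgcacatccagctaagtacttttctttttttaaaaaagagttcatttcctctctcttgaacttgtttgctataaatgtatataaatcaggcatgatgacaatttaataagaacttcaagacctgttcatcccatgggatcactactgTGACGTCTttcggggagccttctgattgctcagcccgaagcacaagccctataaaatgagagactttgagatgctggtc
The element ended 40 bases before the start in Sst and its variant 71 bases before the start in Vip, and neither string is in the Npy window. The RefSeq start of Sst lies inside the GENCODE gene given above, so part of its window, with the element, lies within that gene. On either strand, TGACGTCA is in 1.55% and TGACGTCT in 0.451% of 32851 mouse promoter windows of this length. A RefSeq promoter window was at hand for 9 of the 10 members, and the match of a string is a description only.

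Set per length, as the mean normalised read count over all libraries per kilobase of the longest transcript, Sst stood highest at 6246 and Npy next at 4704. Gad1 followed at 2505, Calb2 at 989, Gad2 at 834, Slc32a1 at 795, Pvalb at 657 and Vip at 454. Lhx6 and Adarb2 were lowest, at 148 and 113. All levels below are normalised read counts per gene, which compare libraries and not genes, and all changes are differences of log2(value + 1). A gene is called where limma's Benjamini-Hochberg adjusted p, over all 17810 genes tested, is below 0.05.

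Some libraries stood apart. Of the 10 Het fluoxetine libraries, 9 were low in a group of 16 pseudogenes, as was WT vehicle female replicate 2. The mean log2 level of these pseudogenes was 1.78 to 3.15 in those 10 libraries and 4.60 to 7.14 in the other 50. The pseudogenes were picked for their fall in Het fluoxetine, so these values describe the libraries and test nothing. Expression in the 10 libraries also ran against GC content: the correlation across genes of a library's deviations with GC was -0.36 to -0.19, against -0.49 to 0.34 in the other 50. The members range from 38.7% GC (Vip) to 61.9% GC (Slc32a1). Results on Het fluoxetine are therefore given also after a GC correction and with a term for these 10 libraries, called the library term. With 9 of its 10 libraries in 1 group, that term and Het fluoxetine can hardly be told apart. Markers of the olfactory bulb also differed widely between libraries, and are described with Calb2.

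**Figure D1:**
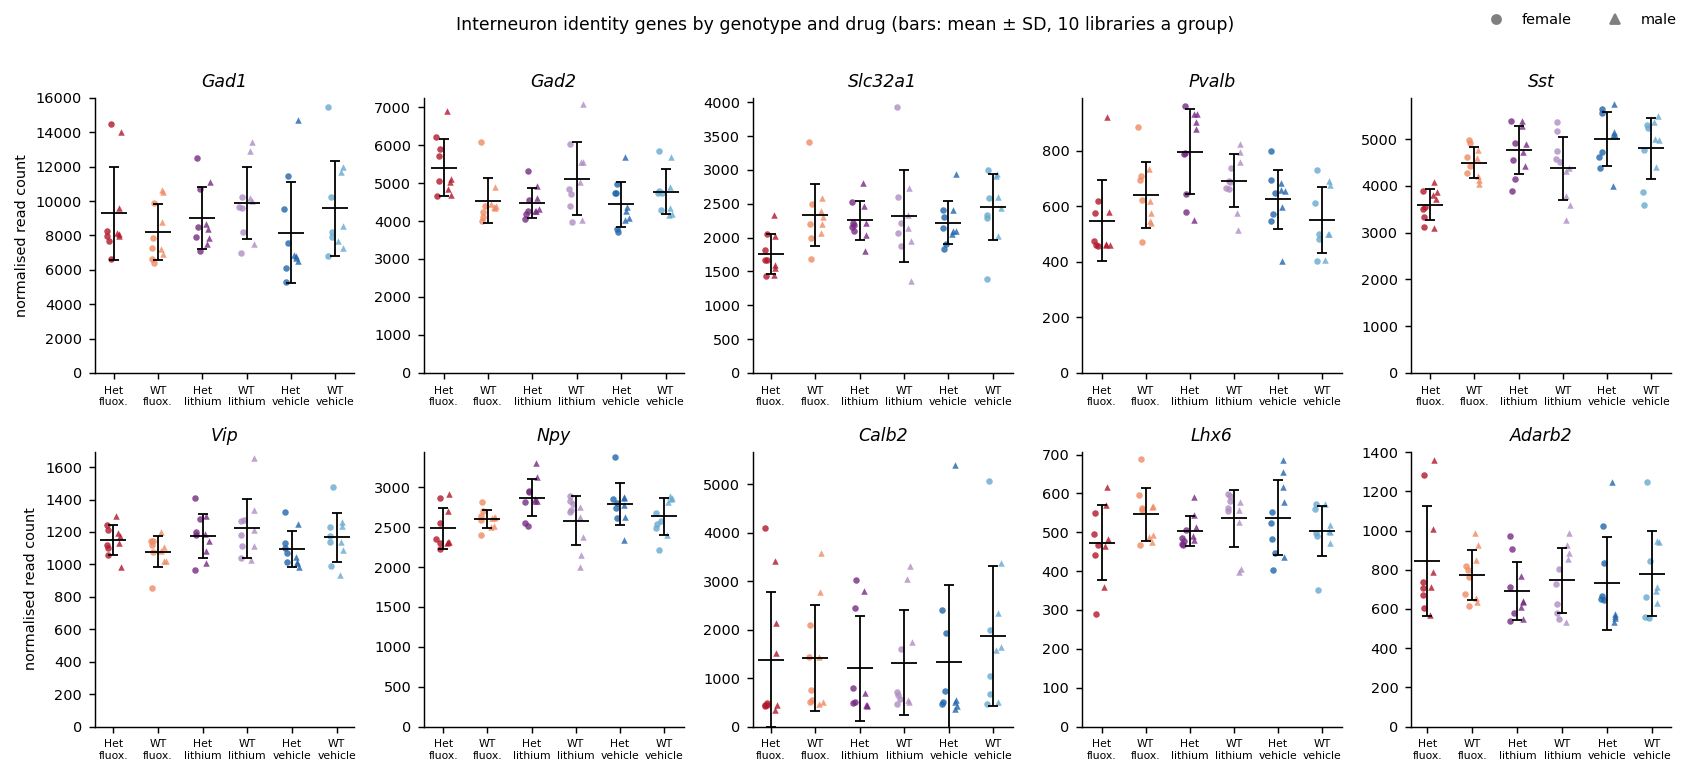
Normalised read count of each member (y axis, from 0) in the 6 genotype-by-drug groups (x axis), with circles for female and triangles for male libraries and bars for mean ± SD over 10 libraries. Sst is lowest in Het fluoxetine, Pvalb highest in Het lithium, and Calb2 spreads from 339 to 5389 across libraries.

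With fluoxetine in Het mice, Sst, Slc32a1 and Npy fell and Gad2 rose. In Het fluoxetine the lowest, median and highest counts of Sst were 3100, 3631 and 4092, against 4002, 5087 and 5747 in Het vehicle. The groups met only at their edges: the highest Het fluoxetine library, male replicate 1, lay just above the lowest Het vehicle library, male replicate 5. Het fluoxetine male replicate 1 is also the library of its group that was not low in the pseudogenes. The change of Sst was -0.47 (SE 0.0678, adjusted p = 5.28e-07), and 10 of 10 Het fluoxetine libraries lay below the Het vehicle mean log2 level of their sex. By sex, Sst was called in females (-0.51, adjusted p = 0.000127) and in males (-0.43, adjusted p = 0.00209).

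The decarboxylase Gad2 and the transporter Slc32a1 went opposite ways. Gad2 had values of 4646, 5076 and 6901 (lowest, median, highest) in Het fluoxetine, against 3709, 4322 and 5674 in Het vehicle. These groups overlap, with 10 of 10 Het fluoxetine libraries above the Het vehicle mean log2 level of their sex and a change of 0.28 (SE 0.0844, adjusted p = 0.0061). Slc32a1 had 1439, 1670 and 2338 in Het fluoxetine, against 1827, 2125 and 2933 in Het vehicle. Here too the groups overlap, and the change was -0.34 (SE 0.125, adjusted p = 0.0279), in the same direction in 9 of 10 libraries. The Slc32a1 call was lost without Het fluoxetine female replicate 1 (adjusted p = 0.055), male replicate 3 (0.0594) or male replicate 5 (0.0505), and without Het vehicle female replicate 5 (0.0502) or male replicate 5 (0.0617). Gad1, the other decarboxylase, had 6656, 8114 and 14479 in Het fluoxetine and 5307, 6838 and 14736 in Het vehicle. Its change of 0.21 (SE 0.161, adjusted p = 0.314) was not called.

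Among the class markers, Npy had 2229, 2333 and 2915 in Het fluoxetine, against 2340, 2789 and 3381 in Het vehicle. The ranges overlap, 7 of 10 libraries lay below the Het vehicle mean log2 level of their sex, and the change was -0.17 (SE 0.053, adjusted p = 0.0103). By sex, Npy was called in females (-0.23, adjusted p = 0.0217), as was Gad2 (0.33, adjusted p = 0.0363). In males the change of Npy was -0.11 (adjusted p = 0.335) and that of Gad2 0.24 (adjusted p = 0.157). The difference between the sexes was called for neither gene. Lhx6 had a change of -0.19 (adjusted p = 0.0905), Pvalb of -0.21 (adjusted p = 0.201), Adarb2 of 0.21 (adjusted p = 0.32), Vip of 0.07 (adjusted p = 0.438) and Calb2 of 0.07 (adjusted p = 0.936), and none of these was called. Lhx6 was called without Het fluoxetine female replicate 3 (adjusted p = 0.0427), Het fluoxetine male replicate 5 (0.0418) or Het vehicle male replicate 5 (0.0265). Pvalb was called without Het fluoxetine male replicate 5 (adjusted p = 0.0465).

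In all, 4 of the 10 members were called with fluoxetine in Het, 1 higher and 3 lower, where 39% of all genes were called, 19.1% higher and 19.9% lower. The members' share is close to that of all genes. Their median change was -0.05, against 0.00 for all genes. Within females 3 members were called, against 25.2% of all genes, and within males 1, against 15.8%.

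After the GC correction Sst was the only member still called in this comparison, with a change of -0.33 (SE 0.0597, adjusted p = 4.14e-05). Gad2 then had a value of 0.18 (adjusted p = 0.0688), Slc32a1, the member richest in GC, of -0.11 (adjusted p = 0.488) and Npy of -0.09 (adjusted p = 0.316). Of all genes, 19.6% were called after that correction. With the library term no member was called, where 0.275% of all genes were called. Under that term the change of Sst was -0.27 (SE 0.124, adjusted p = 0.499), that of Gad2 0.24 (SE 0.16, adjusted p = 0.717) and that of Npy -0.24 (SE 0.0995, adjusted p = 0.405), while Slc32a1 turned to 0.16 (SE 0.222, adjusted p = 0.908). The Het fluoxetine library that was not low in the pseudogenes had 4092 counts of Sst, 4850 of Gad2, 2024 of Slc32a1 and 2319 of Npy.

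**Figure D2:**
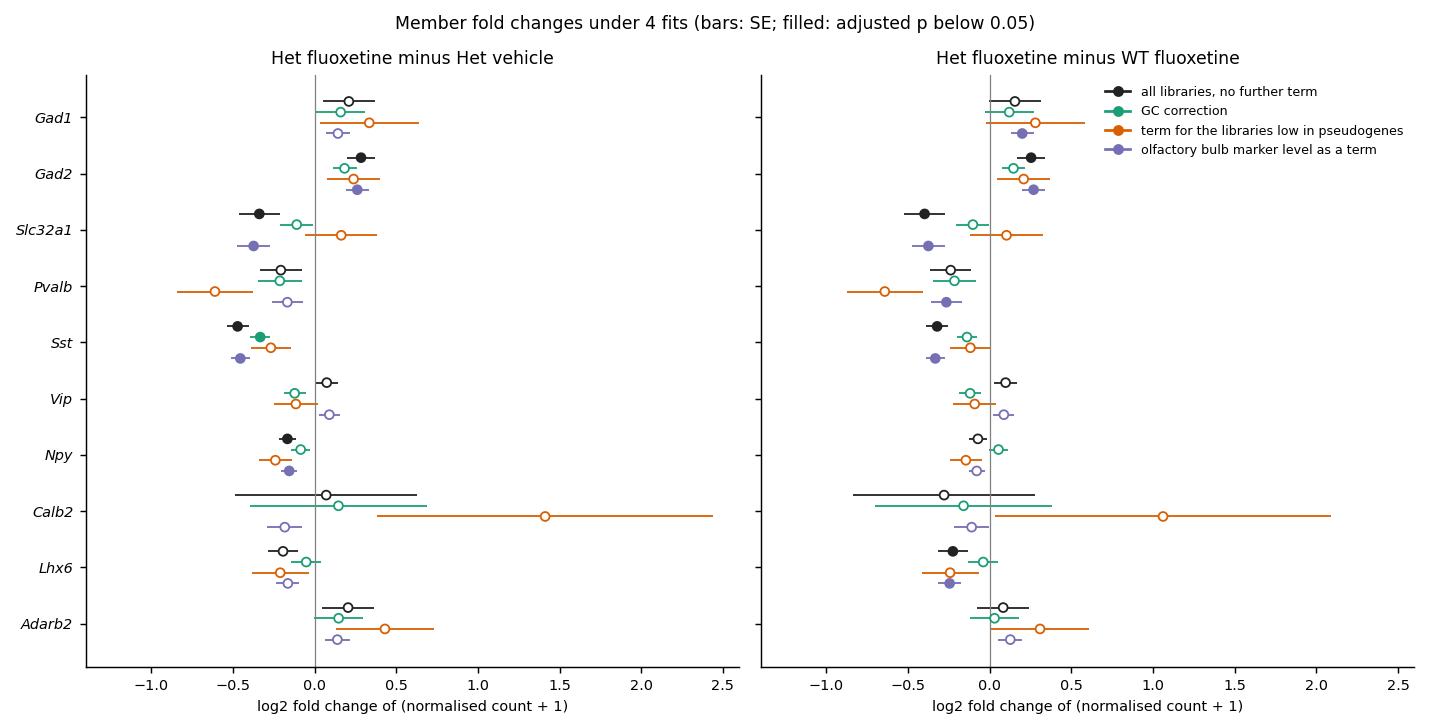
Change of each member (x axis, log2 fold change of normalised count + 1, bars for SE) for Het fluoxetine minus Het vehicle and Het fluoxetine minus WT fluoxetine under 4 fits, with filled points called at an adjusted p below 0.05. Sst stays below 0 in all 4 fits of either comparison, while Slc32a1 moves to 0.16 and 0.10 with the term for the libraries low in pseudogenes.

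Fluoxetine in WT mice moved no member past the threshold. By limma and by edgeR's quasi-likelihood test, 0 of 10 were called and 0 had an unadjusted p under 0.05, where 8.43% of all genes were called by limma. Sst had 4032, 4503 and 4984 in WT fluoxetine, against 3590, 4992 and 5497 in WT vehicle, a change of -0.09 (SE 0.0678, 95% interval -0.22 to 0.05). Gad2 differed by -0.07 (95% interval -0.24 to 0.09), Pvalb by 0.22 (-0.02 to 0.47) and Calb2 by -0.41 (-1.50 to 0.68). The intervals are normal ones from the SE.

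The test of the difference between Het and WT in their change with fluoxetine called 2 members, where 24% of all genes were called. For Sst the change was lower in Het than in WT by -0.38 (SE 0.0959, adjusted p = 0.0035), and for Gad2 it was higher by 0.36 (SE 0.119, adjusted p = 0.024). Both calls held in 40 of 40 fits that left out 1 library. Neither held after the GC correction (Sst -0.22, adjusted p = 0.104, and Gad2 0.26, adjusted p = 0.113) or with the library term (Sst -0.16, adjusted p = 0.877, and Gad2 0.31, adjusted p = 0.743). Of all genes, 7.48% were called after the GC correction and 0.0449% with the library term. Pvalb had a difference of -0.43 (SE 0.18, adjusted p = 0.0713) and Gad1 of 0.41 (SE 0.227, adjusted p = 0.189). The Pvalb difference was called without Het fluoxetine male replicate 5 (adjusted p = 0.0205), Het vehicle male replicate 5 (0.0304), WT fluoxetine female replicate 1 (0.0379), WT vehicle female replicate 2 (0.0481) or WT vehicle male replicate 1 (0.0499). The comparisons of this and the next paragraph share the Het fluoxetine libraries with the one above.

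Between genotypes under fluoxetine, Sst, Slc32a1 and Lhx6 were lower and Gad2 higher in Het than in WT. The Sst counts given above, 3100 to 4092 in Het fluoxetine and 4032 to 4984 in WT fluoxetine, overlap only at the edge, and the change was -0.32 (SE 0.0678, adjusted p = 0.000192). Slc32a1 had 1439, 1670 and 2338 in Het fluoxetine, against 1676, 2255 and 3411 in WT fluoxetine, a change of -0.40 (SE 0.125, adjusted p = 0.00922). Gad2 had a median of 5076 in Het fluoxetine and 4372 in WT fluoxetine, a change of 0.25 (SE 0.0844, adjusted p = 0.0139). Lhx6 had 289, 475 and 615 in Het fluoxetine, against 467, 560 and 688 in WT fluoxetine. Its change was -0.23 (SE 0.0921, adjusted p = 0.0452), and the call was lost without any of 10 of the 20 libraries, among them Het fluoxetine female replicate 2 (adjusted p = 0.164), Het fluoxetine male replicate 2 (0.135) and WT fluoxetine female replicate 4 (0.101). The other 7 were Het fluoxetine female replicate 5 (0.0568), male replicate 1 (0.0576) and male replicate 3 (0.0694), and WT fluoxetine female replicates 2 (0.0548) and 3 (0.0679) and male replicates 2 (0.078) and 4 (0.0769). Pvalb had a change of -0.24 (adjusted p = 0.131), and was called without Het fluoxetine male replicate 5 (adjusted p = 0.0257). Gad1 had 0.15, Vip 0.10, Adarb2 0.08, Npy -0.07 and Calb2 -0.28, none called.

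Thus 4 of 10 members were called between genotypes under fluoxetine, where 39.5% of all genes were called, 19.6% higher and 19.9% lower. Within females 2 were called, Sst and Lhx6, against 33.2% of all genes. Within males limma called 0, with 2 at an unadjusted p under 0.05, against 3.1% of all genes, and there Sst differed by -0.23 (adjusted p = 0.126) and Lhx6 by -0.08 (adjusted p = 0.769). The difference between the sexes was called for neither (adjusted p = 0.686 for Sst and 0.62 for Lhx6). After the GC correction limma called 0 of 10 members, with 1 at an unadjusted p under 0.05, and with the library term likewise 0, with 1 at an unadjusted p under 0.05. edgeR's quasi-likelihood test, without either correction, called 3, all but Lhx6 (adjusted p = 0.0618). The corrected changes of Sst were -0.14 (adjusted p = 0.114) with the GC correction and -0.12 (adjusted p = 0.959) with the library term, and those of Slc32a1 were -0.10 and 0.10.

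In vehicle-treated mice the genotype called no member. By limma and by edgeR's quasi-likelihood test, 0 of 10 were called and 0 had an unadjusted p under 0.05, where 0.59% of all genes were called by limma. Sst had 4002, 5087 and 5747 in Het vehicle, against 3590, 4992 and 5497 in WT vehicle. These values overlap almost fully, and the change was 0.06 (95% interval -0.07 to 0.20). Npy differed by 0.08 (-0.02 to 0.18), Lhx6 by 0.08 (-0.10 to 0.26), Vip by -0.09 (-0.23 to 0.05) and Gad2 by -0.11 (-0.27 to 0.06). The intervals are wider for Slc32a1 (-0.12, from -0.37 to 0.12), Pvalb (0.19, from -0.06 to 0.44), Adarb2 (-0.11, from -0.42 to 0.21) and Gad1 (-0.26, from -0.57 to 0.06), and widest for Calb2 (-0.77, from -1.86 to 0.32).

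With lithium in WT mice Pvalb rose, the only one of the 10 members called by limma. edgeR called 0 (Pvalb at an adjusted p of 0.0668), and 2 members had an unadjusted p under 0.05 by either tool. In WT lithium Pvalb had 514, 688 and 824 counts, against 405, 502 and 730 in WT vehicle. Het lithium had 551, 837 and 963, against 403, 651 and 801 in Het vehicle. In both genotypes the lithium libraries lay mostly above the vehicle ones and the ranges overlap. The change was 0.34 (SE 0.127) in WT with an adjusted p of 0.0488, and 0.34 (SE 0.127) in Het with an adjusted p of 0.187. The changes were alike in size and lay on opposite sides of the threshold, which depends on all genes: 19.2% of all genes were called with lithium in WT and 0.983% with lithium in Het, and 9.34% of all genes were called higher with lithium in WT. The test of the difference between the genotypes gave -0.00 (SE 0.18, 95% interval -0.35 to 0.35, adjusted p = 0.999), and it called 0 of 10 members by limma and by edgeR, 0 with an unadjusted p under 0.05, and 0.0674% of all genes by limma.

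The WT call of Pvalb was marginal. It was lost with TMM factors (adjusted p = 0.0523), with a block for replicate number (0.053) and in a fit of the groups compared alone (0.0638). It was also lost after the GC correction (0.0705) and without the 3 libraries of largest residuals (0.101). It was kept in 6 of 20 fits that left out 1 library and lost in the other 14. The WT lithium libraries whose omission lost it were female replicates 1 (adjusted p = 0.0522), 2 (0.0647), 3 (0.0631), 4 (0.064) and 5 (0.0613) and male replicates 1 (0.0766), 4 (0.0866) and 5 (0.0937). The WT vehicle ones were female replicates 3 (0.102), 4 (0.0841) and 5 (0.0766) and male replicates 2 (0.0765), 3 (0.0763) and 5 (0.103). Averaged over the genotypes, a contrast chosen after the values were seen, Pvalb rose by 0.34 with lithium (SE 0.0898, adjusted p = 0.00471), and it was called in 40 of 40 fits that left out 1 library, which gave changes of 0.31 to 0.38. It was the 1 member called there, against 20.9% of all genes. The same averages for fluoxetine called 1 member, Sst, against 26.8% of all genes, and for genotype 0, with 1 at an unadjusted p under 0.05, against 2.21% of all genes.

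Lithium in Het called 0 of 10 members by limma and by edgeR, with 1 at an unadjusted p under 0.05 (Pvalb). Between genotypes under lithium 0 of 10 were called by limma and by edgeR, with 2 at an unadjusted p under 0.05 (Gad2 and Npy), where 0.0281% of all genes were called by limma. There Pvalb differed by 0.19 (adjusted p = 0.574) and Calb2 by -0.20 (adjusted p = 0.915). In WT with lithium, Sst had a difference of -0.14 (SE 0.0678, adjusted p = 0.146) and Calb2 of -0.52 (SE 0.556, adjusted p = 0.551), neither called.

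The sexes parted in 1 comparison. For lithium in WT the change of Sst was higher in females than in males by 0.50 (SE 0.136, adjusted p = 0.0249) and that of Npy by 0.38 (SE 0.106, adjusted p = 0.0262), where 9.64% of all genes were called. In WT lithium males Sst had 3271, 3785 and 4388 counts, against 4405, 5003 and 5497 in WT vehicle males, a change of -0.39 (adjusted p = 0.00487). In WT lithium females it had 4515, 4754 and 5374, against 3590, 4772 and 5302 in WT vehicle females, a change of 0.11 (adjusted p = 0.476). Npy had 2003, 2379 and 2750 in WT lithium males, against 2407, 2860 and 2897 in WT vehicle males, a change of -0.22 (adjusted p = 0.0281), and 0.16 (adjusted p = 0.161) in females. Sst and Npy were the members called with lithium in WT males, where 20.8% of all genes were called. Both sex differences were lost without WT lithium female replicate 5 (adjusted p = 0.0902 and 0.0883), WT lithium male replicate 5 (0.108 and 0.11) or WT vehicle female replicate 2 (0.0922 and 0.0821), after the GC correction (0.209 and 0.293) and without the 3 libraries of largest residuals (0.304 for both). That of Sst was also lost with the library term (0.0545). WT lithium male replicate 5 had the strongest trend with GC, a correlation of -0.49 across genes, and the largest residuals of the 60 libraries. WT lithium female replicate 5 was also among the 3 libraries of largest residuals. Its mean log2 level of 10 striatal projection neuron genes, 10.6, was the highest of the 60. Its count of Ppp1r1b, 1 of these genes, was 13883, against a WT lithium median of 2090. The part of either library in the result beyond these values was not tested. Averaged over the groups, sex itself called 0 of 10 members by limma and by edgeR, 0 with an unadjusted p under 0.05, and 0.107% of all genes by limma.

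**Figure D3:**
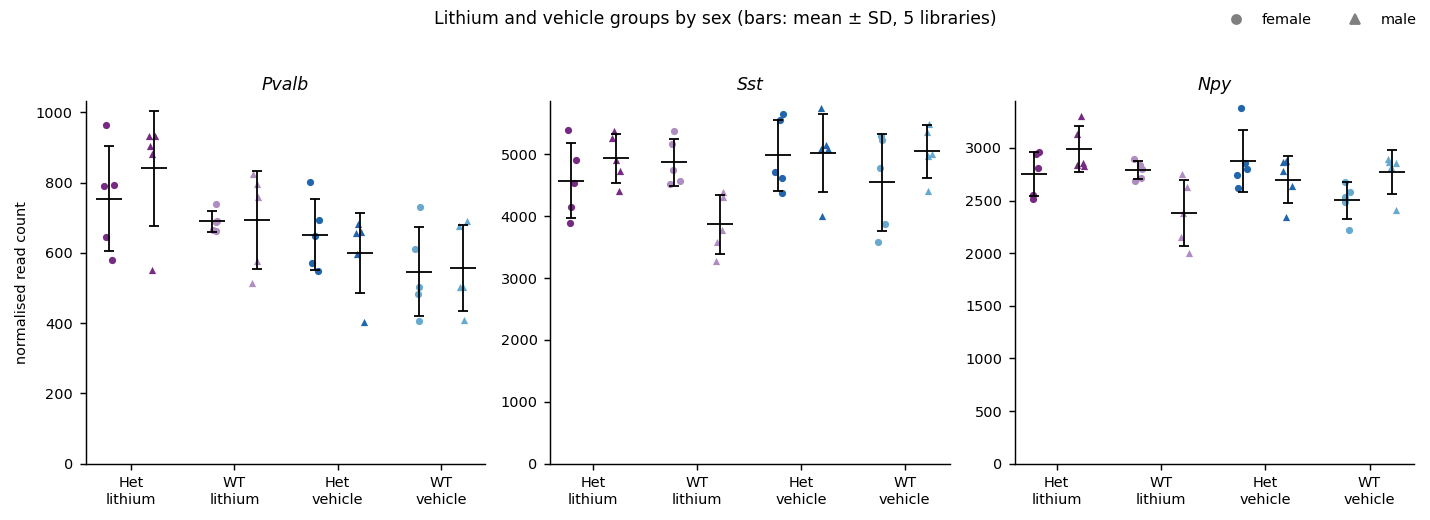
Normalised read count (y axis, from 0) of Pvalb, Sst and Npy in the lithium and vehicle groups (x axis), with female libraries as circles and male libraries as triangles and bars for mean ± SD over 5 libraries. Pvalb means are 754 and 840 in Het lithium females and males and 652 and 599 in Het vehicle females and males, and the Sst mean of 3868 in WT lithium males is the lowest of the 8 group means by sex shown for Sst.

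Calb2 varied between libraries far more than between groups. It had 339, 466 and 4087 counts in Het fluoxetine, 462, 1085 and 3575 in WT fluoxetine, 419, 599 and 3022 in Het lithium, 474, 684 and 3310 in WT lithium, 359, 520 and 5389 in Het vehicle, and 469, 1616 and 5069 in WT vehicle. Each group thus held both low and high libraries. The highest library had 15.9 times the lowest, against 1.69 times for Npy and 2.92 times for Gad1, and the highest group mean only 1.55 times the lowest.

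The spread of Calb2 went with markers of the olfactory bulb. A list of 10 genes of olfactory bulb and immature neurons was measured, among them Eomes and Tbx21 (transcription factors of the bulb's projection neurons), Doc2g, Th (tyrosine hydroxylase, of its dopaminergic cells) and Dcx (doublecortin, of migrating young neurons). Their summed counts ran from 3494 to 21806 in Het fluoxetine, 3243 to 14179 in WT fluoxetine, 3638 to 15176 in Het lithium, 3720 to 15929 in WT lithium, 2965 to 21408 in Het vehicle and 2988 to 23571 in WT vehicle. Of the defining markers Tbx21 was at 0 in 3 libraries, and Eomes ran from 1.18 to 1080. Between 76.6 and 152 lay the widest gap in Eomes on the log2 scale, leaving aside the ends of its range, with 35 libraries below it and 25 above. Those above were 4 of 10 in Het fluoxetine, 5 in WT fluoxetine, 3 in Het lithium, 4 in WT lithium, 3 in Het vehicle and 6 in WT vehicle. These sets are not groups of the study.

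Calb2 had 1425, 2403 and 5389 counts (lowest, median, highest) in the 25 libraries with Eomes above the gap, against 339, 501 and 1045 in the 35 below it, with no overlap. Medians in the libraries above the gap were 10640 for Gad1 and 906 for Adarb2, against 7494 and 633 below it. They were 548 for Pvalb, 4200 for Sst and 482 for Lhx6 above the gap, against 683, 4903 and 558 below it. Vip, Npy, Gad2 and Slc32a1 had medians of 1103, 2554, 4913 and 2395 above the gap, against 1174, 2798, 4358 and 2062 below it.

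Since the libraries fall on either side of that gap, correlations with the marker level are given within each set, on residuals from the genotype-by-drug means. With the mean log2 level of the olfactory bulb list, in the 25 libraries above the gap, Calb2 had Pearson's r = 0.96 and Spearman's rho = 0.94. The permutation p was 1e-05 for both, the smallest that 100000 permutations can give, and the adjusted p 0.0002 for both. Gad1 had r = 0.95 and rho = 0.94 and Adarb2 r = 0.90 and rho = 0.90, each with an adjusted permutation p of 0.0002 for r and for rho. Sst had r = -0.83 and rho = -0.79 (adjusted permutation p = 0.0003 and 0.00084) and Lhx6 r = -0.76 and rho = -0.77 (adjusted permutation p = 0.00232 and 0.003). Without the 2 libraries farthest from the median marker level these became 0.94, 0.93, 0.86, -0.77 and -0.73. In the 35 libraries below the gap Calb2 still had r = 0.76 and rho = 0.75 (adjusted permutation p = 0.00084 and 0.0003), and Gad1 r = 0.41 and rho = 0.41 (adjusted permutation p = 0.0285 and 0.0436). Without the 2 farthest libraries their r was 0.67 and 0.41. In that set Sst had r = 0.05 and Adarb2 0.25, neither past the threshold. The level of 10 striatal projection neuron genes, whose summed counts ran from 5196 to 34745, went with members too. Above the gap r was 0.72 for Gad2, 0.69 for Slc32a1 and -0.75 for Vip. Without the 2 farthest libraries these became 0.55, 0.52 and -0.65. Below the gap r was 0.52, 0.57 and -0.33, the last not past the threshold, and without the 2 farthest libraries Slc32a1 had 0.29. Pvalb had r = -0.59 above the gap and -0.40 below it, both past the threshold. Its r was -0.62 and -0.45 without the 2 farthest libraries. With 12 pyramidal neuron genes Gad2 had r = -0.81 above and -0.23, not past the threshold, below. In all, 60 such relations were computed over 3 marker lists and both sets, with two-sided permutation within groups and Benjamini-Hochberg adjustment over all 60. Of these, 21 passed above the gap and 6 below it.

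**Figure D4:**
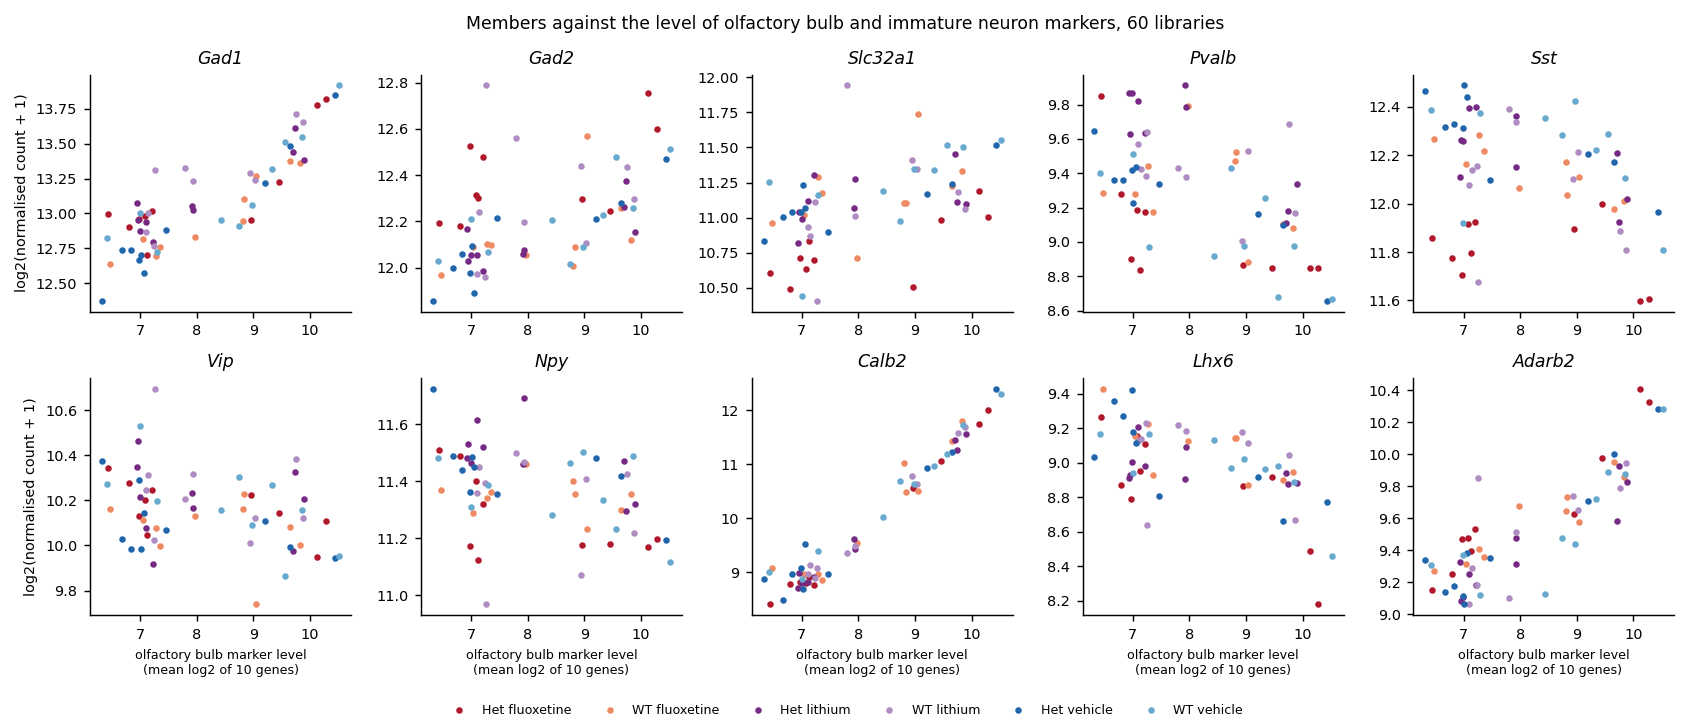
Log2(normalised count + 1) of each member (y axis) against the mean log2 level of the 10 olfactory bulb and immature neuron markers (x axis) in the 60 libraries, coloured by group. At the upper end of the axis Calb2, Gad1 and Adarb2 are high and Sst and Lhx6 low, and all 6 groups spread along the axis.

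With the olfactory bulb level as a term in the fit, chosen after seeing the data, the standard error of Calb2 fell to 0.107 for fluoxetine in Het. For Calb2 between genotypes in vehicle the change became 0.01, against -0.77 without the term. Under that term the calls of fluoxetine in Het were the same 4 members, with Sst at -0.45 (adjusted p = 4.3e-08), Gad2 at 0.26 (adjusted p = 0.00224), Slc32a1 at -0.37 (adjusted p = 0.00267) and Npy at -0.16 (adjusted p = 0.00796). Between genotypes under fluoxetine, Gad1 (0.20, adjusted p = 0.0221) and Pvalb (-0.27, adjusted p = 0.0202) were called beside the 4 members called without it. With the term, 41.4% of all genes were called with fluoxetine in Het and 41.3% between genotypes under fluoxetine. Pvalb was called with lithium in WT (0.29, adjusted p = 0.0262) and in Het (0.38, adjusted p = 0.0223), and Sst was called with lithium in WT as well (-0.16, adjusted p = 0.0419). Of all genes, 20.6% were called with lithium in WT under that term and 1.98% with lithium in Het, against 19.2% and 0.983% without it.

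Members also moved with one another between libraries. How many pairs of other genes would pass was not computed, so the counts below are not particular to the members. Genes outside the 10 followed single members at r of 0.77 to 0.98 over all 60 libraries, as given further below. Of the 45 pairs, 23 passed an adjusted permutation p of 0.05 in the 25 libraries above the Eomes gap, 10 with a positive and 13 with a negative correlation, and 11 passed in the 35 libraries below it, 6 positive and 5 negative. The decarboxylases moved together, with r = 0.77 (rho = 0.79, adjusted permutation p = 0.00127) above the gap and r = 0.75 (rho = 0.72, adjusted permutation p = 0.000736) below it. Sst followed Lhx6 in both sets, with r = 0.79 (rho = 0.76, adjusted permutation p = 0.00166) above and r = 0.65 (rho = 0.49, adjusted permutation p = 0.0018) below. Pvalb went with Vip, at r = 0.81 (rho = 0.78, adjusted permutation p = 0.000225) above and r = 0.53 (rho = 0.58, adjusted permutation p = 0.00054) below. Slc32a1 ran against Vip, at r = -0.80 (rho = -0.79, adjusted permutation p = 0.000337) above and r = -0.63 (rho = -0.68, adjusted permutation p = 0.00532) below, and these are the members of highest and lowest GC content. Without the 2 libraries farthest from the median of the first gene of each pair, these 8 values of r were 0.74 and 0.70 for the decarboxylases, 0.68 and 0.51 for Sst and Lhx6, 0.76 and 0.57 for Pvalb and Vip, and -0.77 and -0.63 for Slc32a1 and Vip. The adjusted permutation p of rho lay between 0.000514 and 0.0135 for these pairs. All of these pairs passed in both sets, while some other strong pairs did not. Slc32a1 with Sst had r = 0.77 below the gap (rho = 0.64, adjusted permutation p = 0.000337) and -0.15 above it, not past the threshold. Gad1 with Sst had r = -0.84 above the gap (rho = -0.86, adjusted permutation p = 0.00054) and -0.31 below it, not past the threshold. Over all 60 libraries, taking the olfactory bulb level out of the residuals lowered r from 0.88 to 0.04 for Gad1 and Calb2. For Calb2 and Adarb2 r went from 0.88 to 0.22, and for Gad1 and Adarb2 from 0.90 to 0.54. For the decarboxylases it went from 0.77 to 0.69, and for Sst and Lhx6 from 0.71 to 0.57.

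**Figure D5:**
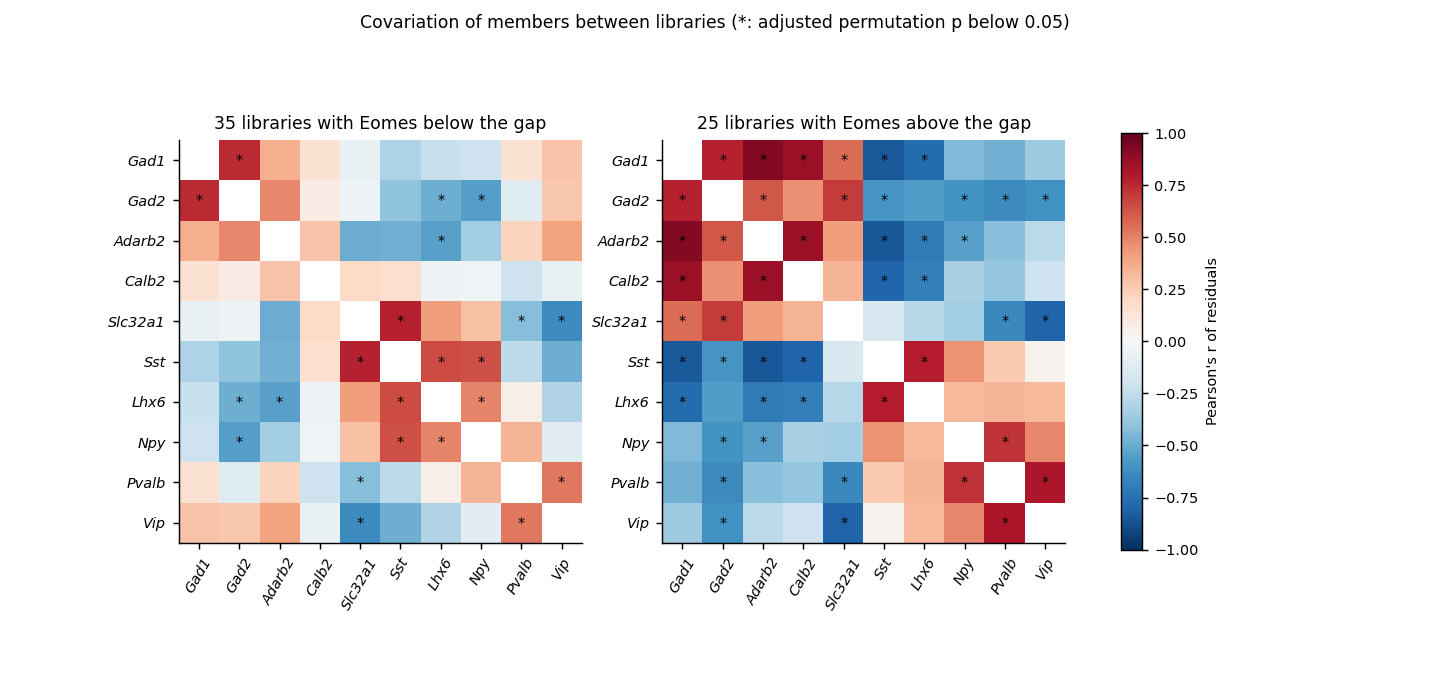
Pearson's r of the residuals of each pair of members (colour, from -1 to 1) in the 35 libraries with Eomes below the gap and the 25 above it, with asterisks at an adjusted permutation p below 0.05. Gad1, Adarb2 and Calb2, each of which followed the olfactory bulb marker level there, form a positive block above the gap. Sst with Lhx6 is positive in both panels.

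Over the residuals of all 60 libraries, the genes most like each member outside the 10 were Th (r = 0.98) and Doc2g (0.98) for Calb2, Prune2 (0.94) and Synpr (0.94) for Gad1, and Dcx (0.94) and Isoc1 (0.94) for Adarb2. They were Rps6ka5 (0.87) and Fam102b (0.84) for Gad2, Sema3f (0.87) and Necab2 (0.87) for Slc32a1, Prkcz (0.84) and Srcin1 (0.83) for Sst, and Ndfip1 (0.84) and Sub1 (0.83) for Vip. For Pvalb they were Camk2n1 (0.82) and Cd34 (0.81), for Npy Wsb2 (0.77) and Cdk16 (0.77), and for Lhx6 Rab15 (0.78) and Ramp3 (0.77). These are descriptions over libraries that share the spread in bulb markers and GC described above.

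The order of the group means was loose for most members. For Sst it ran from Het vehicle (4999 ± 571, SD, n = 10 in each group) over WT vehicle (4801 ± 649), Het lithium (4759 ± 516), WT fluoxetine (4492 ± 334) and WT lithium (4372 ± 669) to Het fluoxetine (3598 ± 336), and only the last step exceeded the larger SD of its neighbours. Slc32a1 ran from WT vehicle (2449 ± 486) over WT fluoxetine (2334 ± 461), WT lithium (2318 ± 685), Het lithium (2253 ± 283) and Het vehicle (2220 ± 316) to Het fluoxetine (1762 ± 294), again with the last step alone beyond the SD. Pvalb ran from Het lithium (797 ± 154) over WT lithium (692 ± 95.5), WT fluoxetine (641 ± 119), Het vehicle (626 ± 106) and WT vehicle (551 ± 118) to Het fluoxetine (548 ± 145), with no step beyond the SD. Gad2 was highest in Het fluoxetine (5406 ± 744) and lowest in Het vehicle (4438 ± 602), Gad1 highest in WT lithium (9874 ± 2089) and lowest in Het vehicle (8155 ± 2934). Npy was highest in Het lithium (2873 ± 236) and lowest in Het fluoxetine (2486 ± 257), Vip highest in WT lithium (1223 ± 183) and lowest in WT fluoxetine (1078 ± 95.8). Lhx6 was highest in WT fluoxetine (546 ± 67.9) and lowest in Het fluoxetine (473 ± 96.7), and Adarb2 highest in Het fluoxetine (845 ± 279) and lowest in Het lithium (692 ± 149). No step between neighbours exceeded the SD for these 6 or for Calb2.

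Other interneuron genes stood beside the members in 4 lists, given by counts. With fluoxetine in Het, 0 of 5 genes of GABA handling were called by limma. Of 8 further genes of Pvalb cells 2 were higher and 1 lower, with the receptor gene Erbb4 at 0.28 (adjusted p = 0.000137) and the mitochondrial subunit gene Cox6a2 at -0.34 (adjusted p = 0.00084). Of 10 further genes of Sst cells 1 was higher and 2 lower: the neuropeptide gene Cort, cortistatin, changed by -0.26 (adjusted p = 0.0079), Elfn1 by -0.39 (adjusted p = 2.95e-05) and Calb1 by 0.29 (adjusted p = 0.00901). Of 12 genes of classes from the caudal ganglionic eminence 1 was higher and 2 lower. These counts, 3 called in each of the 3 lists, are at or below the 39% called among all genes. The medians of the 4 lists, in this order, were -0.05, 0.07, 0.08 and -0.02, against 0.00 over all genes. With lithium in WT the Pvalb-cell list had 1 gene higher, Cox6a2 (0.26, adjusted p = 0.0165), and the Sst-cell list 2 lower, Elfn1 (-0.28, adjusted p = 0.0046) and Cort (-0.23, adjusted p = 0.0418). The list of classes from the caudal ganglionic eminence had 1 lower, Crh (-0.50, adjusted p = 0.000138), and GABA handling 0 by limma. Of all genes 19.2% were called there, 9.34% higher and 9.87% lower. The 4 endothelial markers were all called lower in both comparisons, with Cldn5 at -0.62 with fluoxetine in Het (adjusted p = 8.56e-07) and -0.64 with lithium in WT (adjusted p = 4.44e-06). With fluoxetine in WT, where no member was called, 3 of the 4 were called lower as well, and their median change was -0.35, against -0.20 with fluoxetine in Het and -0.38 with lithium in WT. Their summed counts were 3052 to 4149 in Het fluoxetine against 3731 to 5937 in Het vehicle, and 2394 to 3870 in WT lithium against 3913 to 5034 in WT vehicle. With lithium in WT the 4 microglial markers were called lower too, where 9.87% of all genes were, as were 3 of 4 markers each of astrocytes and meningeal fibroblasts. The part of these cell types in the members' changes was not tested.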

How the data were processed

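Prefrontal cortex RNA was made into stranded libraries, as the labels' protocols state. The submitters' processing notes list GRCm38, R 3.6.0, Salmon 0.11.2 and DESeq2 1.19.11 and give neither role nor order. The deposited signal per gene, made by the authors, is a read count divided by 1 size factor per library, since whole reads (within 0.001) came back for 100% of the values. The totals were 23901635 to 37769417 reads.

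limma 3.58.1 in R 4.3.3 (trend, robust) was fitted to log2(value + 1) of the 17810 genes that reached 10 in 5 or more libraries, with 12 group means. SE and adjusted p come from that fit. It understates the change of low genes. The fit was also run on simulated counts that lack the GC trend and the spread in tissue markers, so that run does not test the calls above. edgeR 4.0.16 was run on the recovered reads (17776 genes). The GC correction subtracted a loess curve (span 0.3) from each library. Other alternatives were TMM factors, pseudocount 5, no filter, the groups compared alone, the replicate block, left-out libraries, and terms for the low libraries and for olfactory bulb or striatal markers. Correlations used numpy 2.4.6 and scipy 1.17.1.

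The members and lists were chosen with earlier results of these data known. Besides the members, the rule named up to 4 called genes of a list and the 2 most like each member. The labels do not say whether replicate numbers pair the samples, and the main fit did not use them. A list of transcription factors is not reported here as a whole.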

Additional observations from a re-analysis of the deposited data

Results flagged for a closer look

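Members moved together between libraries, so the sets below are not independent and their number measures no excess over chance. Of 120 sets of 5 libraries (each member in each genotype, drug and sex group), 18 held a library far from the other 4, where chance gives about 1 in 20. Het vehicle male replicate 5 accounted for 5 of them: Gad1 at 14736 (the others 6505 to 6846), Gad2 at 5674 (4030 to 4373), Pvalb at 402.7 (598 to 682.8), Calb2 at 5389 (359 to 537.8) and Adarb2 at 1246 (534.8 to 576.6). Het fluoxetine female replicate 2 accounted for 3, with Gad1 at 14479 (6656 to 8286), Calb2 at 4087 (433.2 to 479.2) and Adarb2 at 1286 (607.3 to 739.4). The Eomes count was 990 and 934 in these libraries. Het lithium male replicate 5 stood apart in Pvalb at 551.1 (880.6 to 932.4) and Calb2 at 2789 (419 to 692.9).

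WT fluoxetine female replicate 1 stood apart in Gad2 at 6073 (4011 to 4396) and Vip at 853.8 (1078 to 1146). It had a mean log2 level of striatal projection neuron genes of 10.3, and its count of the striatal marker Ppp1r1b was 6267, against a WT fluoxetine median of 1867. The remaining libraries stood apart in 1 member each. Gad2 was 6901 in Het fluoxetine male replicate 2 (4678 to 5099) and 4898 in WT fluoxetine male replicate 5 (4355 to 4455). Slc32a1 was 2530 in Het lithium female replicate 4 (2102 to 2213), Vip 1252 in Het vehicle male replicate 3 (983.5 to 1043), Npy 2407 in WT vehicle male replicate 5 (2823 to 2897) and Adarb2 533.4 in WT lithium male replicate 1 (855.2 to 987).

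The change with fluoxetine differed between Het and WT for Gad2 by 0.3582 and for Sst by -0.3849 on the log2 scale. The change with lithium in WT differed between females and males for Sst by 0.5023 and for Npy by 0.3833.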

How the results depend on the processing

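The GC correction and the library term moved most counts. With them the members called were 1 and 0 for fluoxetine in Het (4 as reported), 0 and 0 between genotypes in fluoxetine (4), 0 and 0 for genotype by fluoxetine (2), 0 and 1 for sex by contrast (2), and 2 and 2 within the sexes (8). All genes called were then 3495 and 49 for fluoxetine in Het (6952), 2324 and 7 between genotypes in fluoxetine (7042), 1332 and 8 for genotype by fluoxetine (4272) and 48 and 32 for genotype by lithium (12), and with the GC correction 222 between genotypes in vehicle (105) and 371 for lithium in Het (175).

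The 1 member called for lithium in WT became 0 with TMM factors, the groups compared alone, the replicate block, edgeR, the GC correction or without the 3 libraries of largest residuals, and 2 with the olfactory bulb term. That term gave 1 member for lithium in Het (0) and 14 within the sexes, and 353 genes for lithium in Het, 13 between genotypes in lithium (5) and 34 for genotype by lithium. Without those 3 libraries 5 members were called for genotype by fluoxetine and 0 for sex by contrast, and 241 genes between genotypes in vehicle, 367 for lithium in Het and 0 between genotypes in lithium. The groups alone gave 47 genes between genotypes in vehicle, 0 between genotypes in lithium, 1278 for lithium in WT (3420) and 6 for genotype by lithium, TMM factors 7 for the last, and the striatal term 0 between genotypes in lithium. The replicate block gave 8 genes there. Of 70 pairs of same-numbered libraries, 10 correlated above 0.1 (-0.34 to 0.29), which does not settle whether replicate numbers pair the samples.

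Leaving out 1 library gave 17 to 132 genes between genotypes in vehicle, 0 to 81 in lithium, 54 to 259 for lithium in Het and 5 to 59 for genotype by lithium, and 0 to 1 members for lithium in WT, 2 to 4 for genotype by fluoxetine and 0 to 2 for sex by contrast. Signs turned only in changes that were not called, Slc32a1 excepted. With the olfactory bulb term these were Calb2 (0.00511), Lhx6 (-0.0058) and Adarb2 (0.0938) between genotypes in vehicle and Calb2 (-0.182) for fluoxetine in Het. With the library term Slc32a1 was 0.163 for fluoxetine in Het and 0.102 between genotypes in fluoxetine, Vip -0.115 and -0.0923, and Calb2 1.06 between genotypes in fluoxetine. With the GC correction Vip was -0.122 and -0.12, and Npy 0.0535 between genotypes in fluoxetine. Pvalb for genotype by lithium was 0.00649 with TMM factors, 0.0216 with edgeR, 0.00479 with the GC correction and 0.0963 with the olfactory bulb term. Without 1 library each, Calb2 for fluoxetine in Het ran from -0.246 to 0.43, Adarb2 between genotypes in fluoxetine from -0.00973 to 0.154 and Pvalb for genotype by lithium from -0.0695 to 0.0715. Of the averaged contrasts, genotype called 393 genes, against 7 with the library term, 186 with the GC correction, 192 with the striatal term and 2120 without the 3 libraries of largest residuals, and fluoxetine 4766, against 832 with the library term. The causes were not tested. The olfactory bulb and striatal terms and the contrasts averaged over groups were added after seeing the data, and the averaged contrasts were not fitted to their groups alone.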
